A study of Homo sapiens with 24 samples.

Results

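The comparison is between MDA-MB-231 lines that overexpress dSAP MRTF-A or dSRF MRTF-A, both grown with matrigel, a gel of basement membrane proteins (3D). MDA-MB-231 is an established human breast cancer line, triple-negative and mesenchymal in character. The 6 libraries, of 24 in the series, were taken by their titles: 3 of 3D dSAP and 3 of 3D dSRF. A control line and a line overexpressing wild-type MRTF-A were grown alongside, and all 4 lines were also grown in plates (2D), with 3 libraries each. Every line, control included, is labelled as given doxycycline at 1 ug/ml for 72 h, in medium with 10% serum, and the 3D cultures held 2% matrigel. The labels do not spell out dSAP and dSRF, and do not say whether a line is a clone or whether replicates were separate cultures. The p-values therefore measure the spread between these libraries, which may be technical.

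MRTF-A, the product of MRTFA, is a coactivator of the transcription factor SRF. Its RPEL motifs bind monomeric actin, which holds it in the cytoplasm. When actin polymerises, MRTF-A enters the nucleus, contacts SRF through a basic region and drives genes of the actin cytoskeleton, smooth muscle and cell adhesion whose promoters hold CArG boxes, the sites SRF binds. It also carries a SAP domain, a fold found in nuclear proteins that bind DNA, and a C-terminal activation domain.

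The 6 libraries held 17190238 to 23023300 counts each, and 12859 to 13461 genes reached 1 CPM (counts scaled to library size with TMM factors). The 3 dSAP libraries resembled each other, with Pearson's r of 0.984 to 0.986 over the log2 CPM of 14986 genes, and dSRF 2 and dSRF 3 did so as well, at 0.984. Library dSRF 1 stood apart from its group, with r of 0.946 and 0.950 to dSRF 2 and 3, against 0.964 to 0.969 to the 2D dSRF libraries and 0.930 to 0.932 to 3D dSAP. Libraries dSRF 2 and 3 were as near to the 2D dSRF libraries, with r of 0.965 to 0.970, and less near to 3D dSAP (0.881 to 0.886). Library dSRF 1 also held less MRTFA (664, 4840.3 and 4857 CPM in dSRF 1, 2 and 3). The fold change of a named gene is therefore also given without dSRF 1, or without another library, where leaving that library out changed a call or direction or moved it by more than 1.5 times. The genotype field of the labels disagrees with the titles in 4 of these 6 libraries. By title, MRTFA took 1.07% to 1.12% of counts in dSAP, 0.0671% to 0.515% in dSRF and 0.00305% to 0.00317% in the control, and the titles are used here. Of 9 genes fixed as present in this line, all were detected, with VIM at 1300.0, 1350.4 and 1362 CPM in dSAP and 1163, 1531 and 1422 CPM in dSRF. Of 9 fixed as absent or low, 5 were tested, and EPCAM, ERBB3 and FOXA1 were higher in dSRF. The immune marker PTPRC was at or under 0.0493 CPM in all 6 libraries, and the smooth muscle marker DES at 0. Other markers in the same lists were expressed, among them CD68, CD14, PDGFRB, COL1A2, COL3A1 and LUM, and are described further on.

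MRTFA itself stood at 10628, 10168 and 10716 CPM in dSAP 1, 2 and 3, and at 664, 4840.3 and 4857 CPM in dSRF 1, 2 and 3. Every dSAP library was above every dSRF library, and dSRF 1 was far below the other dSRF libraries. The log2 fold change in dSAP against dSRF was 1.60 ± 0.39 (SE of the fit, n = 3 per group, edgeR's quasi-likelihood test, adjusted p = 0.0015). Without dSRF 1 it was 1.12 ± 0.05, and with the spread estimated from the 6 libraries alone it was 1.57 and not called (adjusted p = 0.11). The control libraries averaged 29.2 ± 0.352 CPM (SD, n = 3). The same pair of lines in plates held 8765, 9628 and 9030.4 CPM in dSAP and 3180.4, 3170.1 and 3361 CPM in dSRF, so the dSRF line carried less of the transcript than the dSAP line in both cultures. Counts per gene cannot separate the endogenous from the introduced transcript. Whether the level of MRTFA has a part in the differences described here was not tested.

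A gene is counted as called below when its Benjamini-Hochberg adjusted p over all genes tested was under 0.05 in edgeR's quasi-likelihood test. Of 14986 genes tested, 9699 were called between 3D dSAP and 3D dSRF (64.7%), 4771 higher in dSAP (31.8%) and 4928 lower (32.9%). Of these, 3403 differed by at least 2-fold (22.7%). Without dSRF 1, 10969 of 15246 were called (71.9%), 36.8% higher and 35.2% lower, and 4051 by at least 2-fold (26.6%). The calls of the full set were kept in the same direction for 9215 genes, or 95.0%. In 482 the call was lost, and DKK1 and IL24, named after their values were seen, were called in opposite directions. With the spread estimated from the 6 libraries alone, 6599 genes were called, and of the genes named below BMP4, CDH2, COL1A1, DKK1, EGR1, FASN, FHL2, GRAMD1B, HBEGF, ID1, IFIT2, IL24, IL6, KDR, MDM2, NFATC4, OLR1, RIMBP3C, SREBF2 and TLN1 lost their call. The median log2 fold change over all genes was 0.003, against which the medians of gene lists below can be read. The libraries of the groups did not overlap in CPM for 8937 genes, 4518 of them higher in dSAP (30.1%) and 4419 lower (29.5%). With so many genes called, a list with similar shares of its members called in each direction is at the background.

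**Figure D1:**
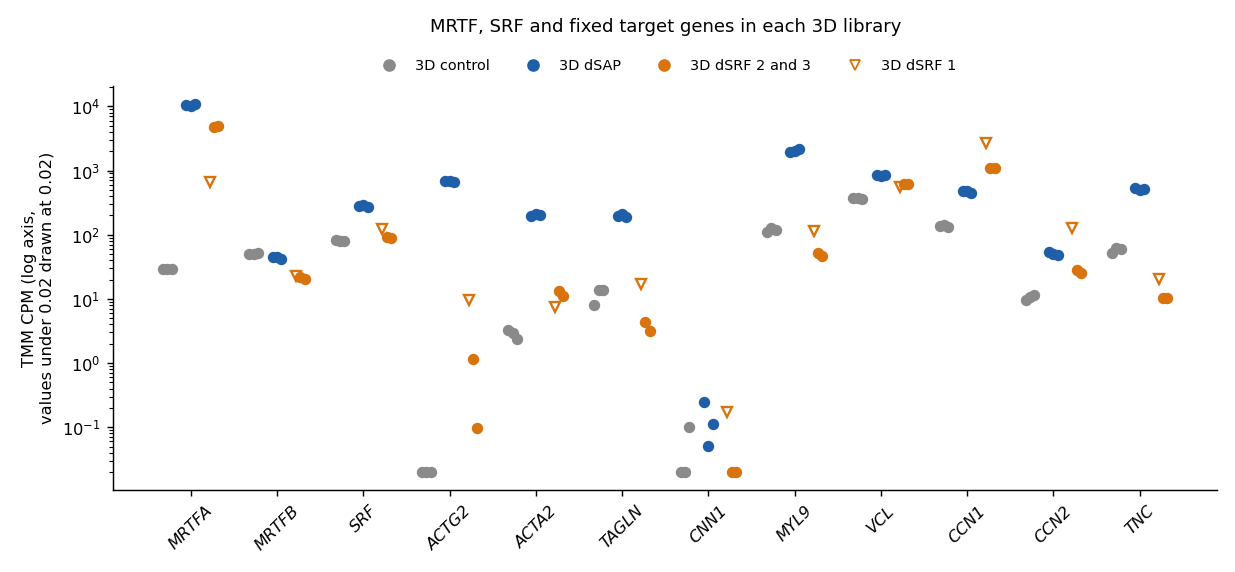
TMM-normalised CPM (log axis) of 12 fixed genes in each library of 3D control (grey), 3D dSAP (blue) and 3D dSRF (orange; the open triangle is dSRF 1), with values under 0.02 drawn at 0.02. dSAP lies above dSRF in every library for ACTG2, ACTA2, TAGLN, MYL9 and TNC and below it for CCN1, and the open triangle for MRTFA is at 664 CPM against 4840.3 and 4857 in the other dSRF libraries.

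Actin genes had the highest median of the gene lists examined. All 5 tested members were called higher in dSAP, with a median log2 fold change of 4.25 (4.65 without dSRF 1). ACTG2, the enteric smooth muscle actin (ENSG00000163017), stood at 694, 694 and 659.7 CPM in dSAP 1 to 3 and at 9.58, 1.17 and 0.0986 CPM in dSRF 1 to 3. The dSAP libraries were nearly equal, and dSRF 1 was the highest of its group. The log2 fold change was 7.48 ± 0.60 (adjusted p = 1.0e-08), and 10.10 ± 0.42 without dSRF 1. ACTA2, the vascular smooth muscle actin, held 195, 208 and 204 CPM in dSAP and 7.35, 13.5 and 11.2 CPM in dSRF, here with dSRF 1 the lowest. Its log2 fold change was 4.25 ± 0.19 (adjusted p = 4.5e-13). The cardiac actin ACTC1 showed the same order, with 12.5, 17.2 and 13.2 CPM in dSAP against 0.473, 0.107 and 0.247 CPM in dSRF. The cytoplasmic actins, which build the cortex and stress fibres of every cell, differed too. ACTB held 15019, 14721 and 15183 CPM in dSAP and 5579.6, 2609 and 2605 CPM in dSRF, a log2 fold change of 2.06 ± 0.19, and ACTG1 held 9564, 9076 and 9738 CPM and 1754, 378 and 376 CPM, a log2 fold change of 3.50 ± 0.41. In both genes dSRF 1 was more than 2-fold above dSRF 2 and 3, and without it ACTG1 reached 4.65 ± 0.15. Actin genes are near-identical in coding sequence, so the share of reads given to each is uncertain.

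Regulators and partners of the contractile filament were also mostly higher in dSAP. Of 15 tested smooth muscle genes, 10 were called higher in dSAP and 2 lower (median 1.36), and of 11 myosin II chains and kinases 7 were higher and 2 lower (median 0.43). TAGLN, the actin-binding protein transgelin, stood at 194, 211 and 188 CPM in dSAP and 17.2, 4.32 and 3.20 CPM in dSRF. The groups were far apart, with dSRF 1 the highest of its group, and the log2 fold change was 4.54 ± 0.39 (5.72 ± 0.27 without dSRF 1). MYL9, a regulatory myosin light chain of smooth muscle and non-muscle cells, held 1961, 2006 and 2168 CPM in dSAP and 116, 51.5 and 45.95 CPM in dSRF, a log2 fold change of 4.84 ± 0.27 (adjusted p = 1.7e-11). MYL7, the atrial myosin light chain, held 121, 128 and 135 CPM in dSAP and 1.93, 0 and 0 CPM in dSRF, where all but dSRF 1 were at 0 counts. Its log2 fold change was 7.48 ± 0.55 over all libraries, and without dSRF 1 it was at least 1660.2-fold higher, counting 3 reads over the whole group as its floor. LMOD1, leiomodin, which starts actin filaments in smooth muscle, held 16.04, 11.5 and 18.2 CPM in dSAP and 0.0859, 0.160 and 0.148 CPM in dSRF, a log2 fold change of 6.81 ± 0.37. CNN1, calponin, was low in every 3D library, with 0.245, 0.0503 and 0.112 CPM in dSAP and 0.172, 0 and 0 CPM in dSRF. It was not called over all libraries (1.03 ± 1.00, adjusted p = 0.38) and was called without dSRF 1 (adjusted p = 0.023), where dSRF held no count. MYH9, the main non-muscle myosin heavy chain, was not called (-0.10 ± 0.08, adjusted p = 0.28).

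Tropomyosins, which coil along actin filaments, were called higher for 3 of 4 genes (median 1.11). TPM2 held 61.4, 68.9 and 72.7 CPM in dSAP and 6.88, 8.27 and 8.68 CPM in dSRF, a log2 fold change of 3.09 ± 0.13. TPM1 (1.44 ± 0.13) and TPM4 (0.77 ± 0.04) were also higher, and TPM3 was not called (-0.13 ± 0.06, adjusted p = 0.059) except without dSRF 2 (-0.20, adjusted p = 0.0072). Among the 8 tested MRTF, SRF and ternary complex factor genes, 5 were higher and 2 lower (median 0.25). SRF held 281, 291 and 273 CPM in dSAP and 121, 92.4 and 88.2 CPM in dSRF, a log2 fold change of 1.48 ± 0.08, and MRTFB, the paralog of MRTF-A, held 44.7, 44.8 and 42.5 CPM and 22.5, 21.995 and 20.8 CPM, a log2 fold change of 1.02 ± 0.05. The 3 dSRF libraries were close together for MRTFB, dSRF 1 included. ELK1, a ternary complex factor that shares SRF with the MRTFs, was lower in dSAP, with 81.5, 88.5 and 84.7 CPM against 198, 215 and 209.5 CPM in dSRF (-1.29 ± 0.04).

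Upstream sequences are shown for the named genes with large changes that hold a CArG box, so that the sites can be set beside the values. The search covered the 250 bases before the RefSeq start (build GRCh38.p14). Of 35 fixed or most changed genes, 27 had a sequence in the table and 4 held a box: MYL7, ACTG2, GPR183 and SRF. Of all 35116 windows of this length, 1.16% held one and 0.0313% held 2. ACTG2 and SRF are among the fixed genes, which were taken as MRTF and SRF genes and their targets. Boxes in them are in part built into that choice, so the 2 shares are not a comparison. The motif is 10 bases long, CC and GG with only A or T between them. Its pattern reads the same on both strands, and no other motif was searched. Sequences run 5′ to 3′ on the gene's strand, the boxes are in capitals, and the last base shown is the one before the start. ACTG2 lies at chr2:73892758-73893007, plus strand, MYL7 at chr7:44141333-44141582, minus strand, GPR183 at chr13:99307400-99307649, minus strand, and SRF at chr6:43171019-43171268, plus strand. A match is a description of the letters and not of binding.
MYL7: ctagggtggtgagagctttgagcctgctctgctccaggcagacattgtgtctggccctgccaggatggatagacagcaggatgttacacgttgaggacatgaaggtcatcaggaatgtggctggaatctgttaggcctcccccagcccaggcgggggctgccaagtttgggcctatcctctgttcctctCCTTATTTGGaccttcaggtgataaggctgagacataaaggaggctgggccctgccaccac
ACTG2: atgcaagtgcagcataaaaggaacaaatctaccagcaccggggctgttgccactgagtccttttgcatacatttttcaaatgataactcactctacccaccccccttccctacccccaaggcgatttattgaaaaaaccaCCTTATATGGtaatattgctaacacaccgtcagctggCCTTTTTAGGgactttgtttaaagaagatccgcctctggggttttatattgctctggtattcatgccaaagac
GPR183: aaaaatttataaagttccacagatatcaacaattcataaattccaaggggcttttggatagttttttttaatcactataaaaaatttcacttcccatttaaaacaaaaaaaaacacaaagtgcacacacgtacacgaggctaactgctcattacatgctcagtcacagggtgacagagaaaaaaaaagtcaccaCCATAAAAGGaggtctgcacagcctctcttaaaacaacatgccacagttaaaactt
SRF: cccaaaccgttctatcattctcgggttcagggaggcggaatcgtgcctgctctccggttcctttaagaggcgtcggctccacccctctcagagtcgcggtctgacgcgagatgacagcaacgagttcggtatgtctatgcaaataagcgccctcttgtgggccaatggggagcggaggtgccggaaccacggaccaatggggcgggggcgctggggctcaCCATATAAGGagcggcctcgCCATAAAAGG
ACTG2 holds a box that begins at -110 and another at -73, MYL7 one at -61, GPR183 one at -56, and SRF boxes at -30 and -10, counted back from the start. GPR183, a receptor for oxysterols known from lymphocytes, held 2.79, 2.36 and 2.18 CPM in dSAP and 0, 0.107 and 0 CPM in dSRF, where 2 counts were seen in all. No box was found in the windows of ACTA2, CNN1, VCL, CCN2, TNC and LMOD1, which says only that these letters are not in those 250 bases. A box that departs from the pattern by a base would not have been found.

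Adhesion and filament-turnover genes were called in both directions. All 19 tested focal adhesion and stress fibre genes were called, 12 higher in dSAP and 7 lower (median 0.46). Zyxin (ZYX), which follows tension on stress fibres, held 485, 497 and 476 CPM in dSAP and 192, 136 and 116 CPM in dSRF, a log2 fold change of 1.71 ± 0.11. The actin crosslinker FLNA rose (1.04 ± 0.08) and vinculin (VCL), which ties integrins to actin, held 865, 822 and 858 CPM and 563, 612 and 615 CPM, a log2 fold change of 0.51 ± 0.04 (adjusted p = 3.8e-09). Paxillin (PXN), an adhesion scaffold, was lower, with 338, 349 and 329.6 CPM in dSAP against 603, 826 and 807 CPM in dSRF (-1.14 ± 0.08), and talin TLN1 was lower by a small margin (-0.15 ± 0.05). FHL2 was called lower over all libraries (-0.22 ± 0.09, adjusted p = 0.047) and not without dSRF 1 (adjusted p = 0.49), dSAP 1 (0.117) or dSAP 3 (0.155). Of 20 bundling and turnover genes 10 were higher and 7 lower (median 0.16, and 0.28 without dSRF 1), and of 8 Arp2/3 subunits, which branch actin, 6 were higher and 1 lower (median 0.42).

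Among 15 integrin subunits, 5 were higher in dSAP and 7 lower (median 0.07, and -0.04 without dSRF 1). ITGA5, the fibronectin receptor alpha chain, held 789, 817 and 767 CPM in dSAP and 174, 125 and 118 CPM in dSRF, a log2 fold change of 2.50 ± 0.12 (adjusted p = 1.2e-12). ITGB3, a beta chain of vitronectin receptors, was higher by a like amount (2.56 ± 0.12). ITGB4, the beta chain of the hemidesmosome laminin receptor, went the other way, with 170.2, 157 and 164 CPM in dSAP against 890.0, 1464 and 1414 CPM in dSRF (-2.94 ± 0.13). ITGB8, a chain of an integrin that activates TGF-beta, stood at 0.831, 0.755 and 1.01 CPM in dSAP and 8.34, 33.8 and 36.3 CPM in dSRF (-4.91 ± 0.46). For both of these, dSRF 1 lay between dSAP and the other dSRF libraries.

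Interstitial matrix genes were higher in dSAP for 12 of 20 tested members and lower for 4 (median 0.66, and 1.00 without dSRF 1). TNC, the matricellular protein tenascin C, held 536, 505 and 515 CPM in dSAP and 20.4, 10.5 and 10.3 CPM in dSRF, a log2 fold change of 5.23 ± 0.26 (adjusted p = 3.0e-12). VCAN, a large proteoglycan, held 9.39, 8.81 and 8.999 CPM and 0.988, 0.214 and 0.592 CPM (3.86 ± 0.35, and 4.45 ± 0.38 without dSRF 1), and fibronectin FN1 1288, 1291 and 1297 CPM and 1002, 498 and 509 CPM (0.95 ± 0.18). The chains of collagen I parted. COL1A2 held 49.6, 52.8 and 54.7 CPM in dSAP and 2.84, 9.02 and 9.12 CPM in dSRF (2.92 ± 0.26), while COL1A1 held 26.4, 28.9 and 26.1 CPM and 11.1, 116 and 99.9 CPM, a log2 fold change of -1.48 ± 0.45 and of -1.99 ± 0.09 without dSRF 1, and not called without dSRF 2 (-1.03, adjusted p = 0.0652). In COL1A1 library dSRF 1 was below all 3 dSAP libraries, so the groups overlapped. FBLN1, the elastic-fibre protein fibulin 1, was lower in dSAP, with 0.489, 0.553 and 0.335 CPM against 13.5, 36.9 and 38.6 CPM (-5.98 ± 0.43). Collagen IV and laminin genes were called 6 higher and 6 lower of 14 (median 0.04, and -0.15 without dSRF 1). Of 17 proteases and inhibitors 3 were higher and 5 lower (median -0.26, and 0.08 without dSRF 1). The collagenase MMP1 held 0.245, 0.201 and 0.447 CPM in dSAP and 7.05, 21.3 and 20.6 CPM in dSRF (-5.76 ± 0.51). Urokinase PLAU, which activates plasmin at the cell surface, held 215, 224 and 216 CPM and 1993, 2337 and 2275 CPM, a log2 fold change of -3.33 ± 0.12 with all 3 dSRF libraries close together.

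The list of Hippo pathway genes and targets of YAP and TEAD, its coactivator and factors, which also answer to tension, was called lower in dSAP for 11 of 22 genes and higher for 3 (median -0.42). Without dSRF 1 the count was 11 lower and 8 higher, with a median of -0.09. CCN1, a secreted matricellular protein, held 480.3, 487 and 453 CPM in dSAP and 2722, 1090.1 and 1094 CPM in dSRF. All dSRF libraries lay above dSAP, dSRF 1 by the most, and the log2 fold change was -1.79 ± 0.22 (-1.20 ± 0.05 without dSRF 1). ANKRD1, a nuclear ankyrin-repeat protein, held 31.3, 39.9 and 33.9 CPM and 1029, 369.6 and 393 CPM (-4.09 ± 0.28, and -3.44 ± 0.08 without dSRF 1). CCN2, the related connective tissue growth factor, held 53.2, 50.6 and 47.5 CPM in dSAP, between 125 CPM in dSRF 1 and 28.1 and 25.7 CPM in dSRF 2 and 3. It was not called over all libraries (-0.25 ± 0.37, adjusted p = 0.56) and was higher in dSAP without dSRF 1 (0.91 ± 0.08, adjusted p = 5.4e-10). THBS1, thrombospondin 1, behaved the same, with 1325, 1388 and 1251 CPM in dSAP and 4551, 649 and 692 CPM in dSRF (-0.57 ± 0.45, and 0.98 ± 0.07 without dSRF 1). It was called lower when dSRF 2 (-0.99, adjusted p = 0.0435) or dSRF 3 (-0.98, adjusted p = 0.0499) was left out instead.

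Keratins, the intermediate filaments of epithelia, were higher in dSRF. All 6 tested basal and stress keratins were called lower in dSAP, with a median log2 fold change of -6.29, or -4.48 with the 3 members that dSAP held no count of placed at their bound. These 3 passed the filter on low counts through other libraries, so they could only be called lower in dSAP or not called. One of them, KRT34, was seen only in dSRF 1 among these 6 libraries, and without it 5 of 6 were called. KRT16, a keratin of stressed epidermis, held 0.196, 0.604 and 0.279 CPM in dSAP and 33.7, 472 and 504 CPM in dSRF, with dSRF 1 more than 10-fold below the others of its group. Its log2 fold change was -9.84 ± 0.90, and -10.44 without dSAP 2. KRT15, of basal cells, held 3.62, 3.62 and 3.97 CPM and 34.6, 165 and 161 CPM (-5.004 ± 0.41), and KRT17 11.2, 10.1 and 9.39 CPM and 51.01, 109 and 124 CPM (-3.21 ± 0.23). Of 7 simple-epithelium keratins 5 were lower in dSAP and 1 higher (median -1.26). KRT8 held 379, 385 and 402 CPM in dSAP and 3575, 5807 and 5886 CPM in dSRF, a log2 fold change of -3.71 ± 0.12, and its partner KRT18 held 157, 157 and 167 CPM and 1644, 3183 and 3209 CPM (-4.06 ± 0.17). Keratins of a type share much sequence, so reads may be split between them. In bulk RNA, fewer cells that express a gene and less of its RNA per cell cannot be told apart.

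Junction genes were mostly lower in dSAP as well. Of 23 tested adhesion and junction genes 16 were called lower in dSAP and 1 higher (median -1.81). DSP, the desmosome plaque protein desmoplakin, held 215, 213 and 218 CPM in dSAP and 679.6, 1272 and 1325 CPM in dSRF, a log2 fold change of -2.34 ± 0.15 (adjusted p = 8.0e-11). CGN, the tight junction protein cingulin, held 2.01, 2.11 and 3.19 CPM and 25.1, 62.4 and 64.9 CPM (-4.39 ± 0.30). SPINT1, an inhibitor of surface serine proteases, held 22.1, 21.7 and 23.1 CPM and 99.7, 258 and 236 CPM (-3.15 ± 0.23). In each of these dSRF 1 lay between the dSAP libraries and dSRF 2 and 3. CDH1, E-cadherin, stayed at or under 0.473 CPM in all 6 libraries and was not called (-1.05 ± 0.55, adjusted p = 0.10), other than without dSAP 3 (-1.82, adjusted p = 0.0194). Of 12 epithelial and luminal regulators 7 were lower and 2 higher (median -1.12), and 7 and 5 without dSRF 1 (median -0.86). FOXA1, a pioneer factor of luminal cells, held 0.0489, 0.151 and 0.0559 CPM in dSAP and 0.817, 19.5 and 18.2 CPM in dSRF (-7.11 ± 0.98, and -7.76 without dSAP 2). ELF3, an epithelial ETS factor, held 2.35, 1.46 and 2.63 CPM and 7.005, 25.7 and 25.7 CPM (-3.18 ± 0.36). SOX4 held no count in dSAP and 1.25, 7.53 and 7.10 CPM in dSRF, at least 97.8-fold lower in dSAP against the floor of 3 counts. Mesenchymal markers were called 3 higher and 3 lower of 9 (median 0.16), and 5 and 3 without dSRF 1 (median 0.74). ZEB1, a repressor of epithelial genes, was higher in dSAP, with 56.1, 50.9 and 53.4 CPM against 41.9, 28.5 and 31.5 CPM (0.65 ± 0.10), and VIM was not called over all libraries (-0.04 ± 0.07) but was lower by a small margin without dSRF 1 (-0.14 ± 0.05, adjusted p = 0.018). CDH2, N-cadherin, was called lower over all libraries (-1.61 ± 0.54) with dSRF 1 at 5.50 CPM against 0.694 and 0.740 CPM in dSRF 2 and 3, and was not called without it (adjusted p = 0.79).

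The 12 largest differences in each direction were led by genes near 0 in one line. They were ranked among genes called in the same direction with and without dSRF 1, with at least 1 CPM on average in a group and libraries that did not overlap, so that their size is a description. ALX1, a homeobox factor of craniofacial mesenchyme, held 6.505, 6.29 and 7.77 CPM in dSAP and no count in dSRF, at least 142-fold higher. SERPINB2, an inhibitor of urokinase, held 1.37, 1.86 and 1.509 CPM in dSAP and no count in dSRF (at least 32.8-fold). IL23R, a cytokine receptor chain, held 14.9, 10.9 and 16.7 CPM and 0, 0.160 and 0.345 CPM (6.40 ± 0.36, 5.75 ± 0.30 without dSRF 1 and 7.49 without dSRF 3). NHSL2 held 8.31, 8.91 and 8.16 CPM and 0.0430, 0.107 and 0.296 CPM (5.80 ± 0.33, and 6.75 without dSRF 3), and the brush-border enzyme MGAM 22.9, 16.8 and 22.4 CPM and 1.03, 0 and 0 CPM, with counts in dSRF 1 alone of its group. SYNGR1 and POU2F3, a factor of tuft cells, were seen with 1 and 2 counts in dSRF, and held 1.42, 1.66 and 1.84 CPM and 2.10, 2.36 and 2.96 CPM in dSAP. MYL7, ACTG2, LMOD1, GPR183 and CA9 complete the rises.

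On the other side, IGFL1, a small secreted factor of skin, held 256, 648 and 707 CPM in dSRF 1, 2 and 3 and no count in any dSAP library, at least 10103-fold lower in dSAP. Genes of cornified epidermis were among the others. CRCT1 held 10.9, 78.96 and 69.2 CPM in dSRF and LCE3D, of a family of near-identical genes, 2.88, 65.02 and 69.1 CPM, both with no count in dSAP. KLHDC7A held 3.18, 69.6 and 68.97 CPM, and XCR1, a chemokine receptor, 0.516, 20.5 and 19.8 CPM, also with no count in dSAP. EPB41L3, a membrane skeleton protein, held 0.602, 16.1 and 14.99 CPM, DAAM2, a formin, 1.805, 12.8 and 13.2 CPM, and SLAMF1, a lymphocyte surface receptor, 1.46, 13.03 and 13.8 CPM, again with none in dSAP. RIMBP2 and the metallothionein MT1B, whose family members are hard to tell apart, reached 10.8 and 13.9 CPM in dSRF 3. CYP4B1, a P450 enzyme, held 25.4, 65.6 and 73.9 CPM in dSRF and 2 counts in all of dSAP, and NECAB1 11.8, 70.2 and 75.4 CPM and 1 count. In each of these 12 genes dSRF 1 was the lowest of its group. In KLHDC7A, LCE3D, XCR1, EPB41L3 and RIMBP2 it was over 10-fold below the others.

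**Figure D2:**
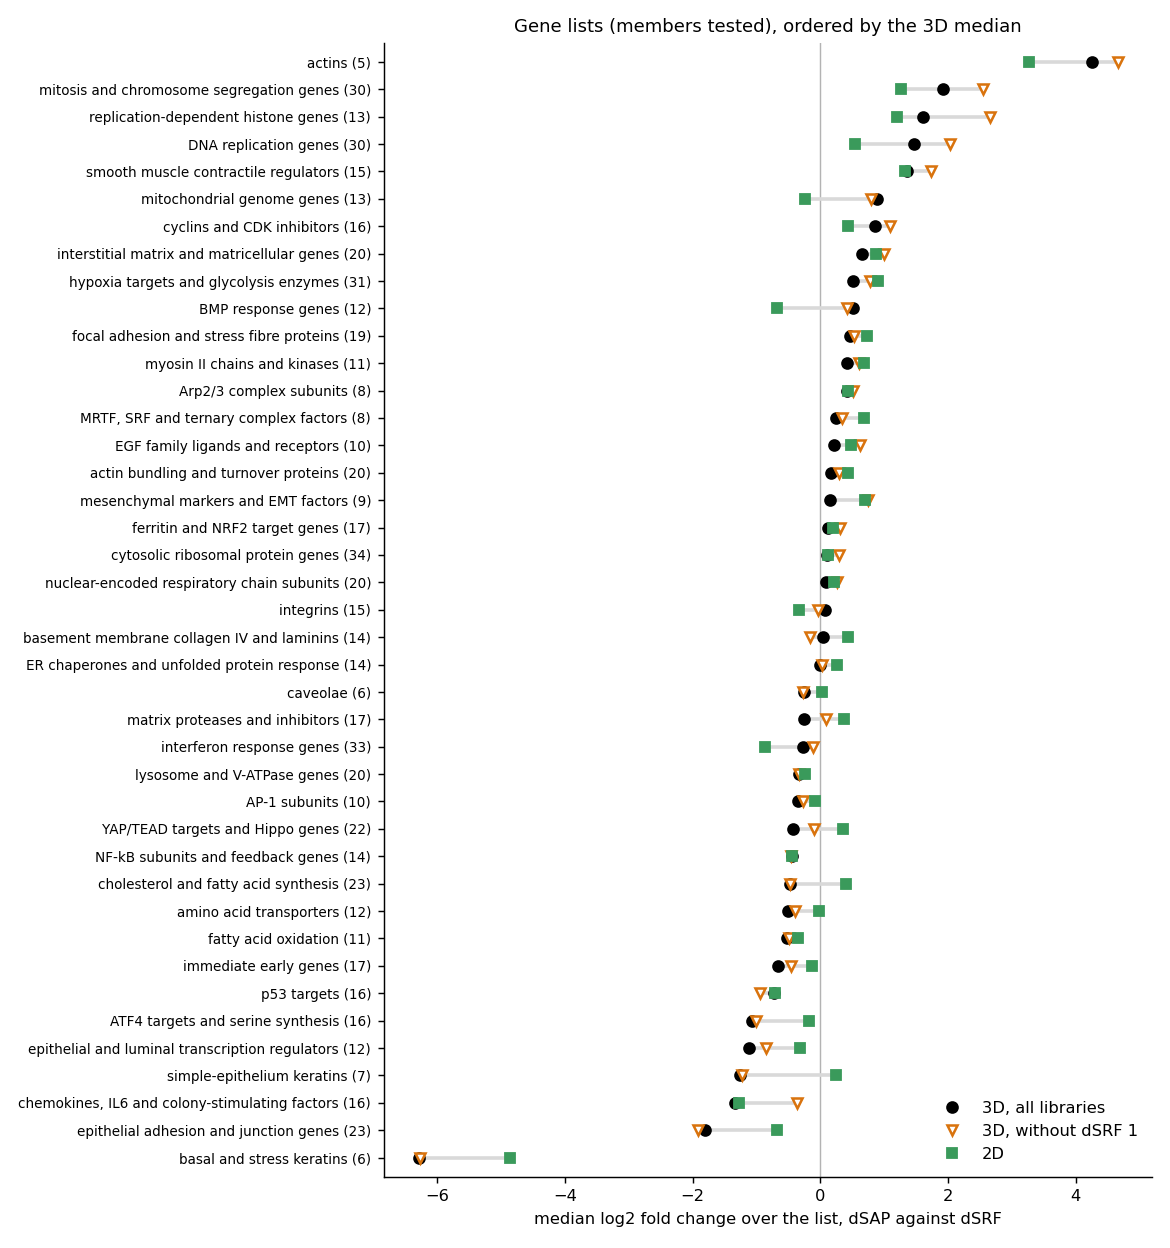
Median log2 fold change of dSAP against dSRF over the tested members of each gene list (number in brackets), in 3D with all libraries (black), in 3D without dSRF 1 (open triangle) and in 2D (green). Lists of line markers and of other cell types are not drawn. Of those drawn, actins (4.25), mitosis (1.92) and histone genes (1.61) are at the top and basal keratins (-6.29) at the bottom. Several lists lie on opposite sides of 0 in 3D and 2D. Among them are cholesterol synthesis, simple keratins, BMP response, Hippo and YAP and TEAD, and mitochondrial genome genes. The difference between cultures was called for 3 of 12 BMP response genes.

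Early-response genes, which growth factors and stress induce within minutes, were lower in dSAP: 12 of 17 immediate early genes were called lower and 2 higher (median -0.66), and of 10 AP-1 subunits 5 were lower and 1 higher (median -0.35), with 3 higher without dSRF 1. DUSP1, a phosphatase that shuts off MAP kinases, held 11.30, 10.9 and 11.5 CPM in dSAP and 125, 224 and 213 CPM in dSRF, a log2 fold change of -4.06 ± 0.20. DUSP6, which acts on ERK and is itself an ERK target, held 35.6, 33.8 and 40.2 CPM and 122, 220.1 and 237 CPM (-2.40 ± 0.15). The orphan nuclear receptor NR4A2 held 0.538, 1.06 and 1.01 CPM and 15.3, 46.7 and 46.8 CPM (-5.38 ± 0.39). EGR1, itself an SRF target, was among the exceptions, with 7.04, 6.69 and 8.11 CPM in dSAP and 5.93, 2.35 and 2.47 CPM in dSRF (0.998 ± 0.28, and 1.59 ± 0.26 without dSRF 1). FOSL1, a Fos-family subunit, was not called over all libraries (0.24 ± 0.41), with dSRF 1 at 305 CPM against 56.4 and 53.4 CPM in dSRF 2 and 3, and was higher in dSAP without it (1.58 ± 0.11).

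Of 10 EGF-family ligands and receptors 4 were higher in dSAP and 1 lower (median 0.21), and without dSRF 1 there were 8 higher and 1 lower (median 0.62). The ligand EGF held 20.8, 21.7 and 19.3 CPM in dSAP and 1.38, 1.55 and 1.43 CPM in dSRF, a log2 fold change of 3.82 ± 0.11 (adjusted p = 5.4e-16), and 3.79 ± 0.13 without dSRF 1. HBEGF, another ligand of EGFR, held 133, 138 and 133 CPM and 107, 27.9 and 29.5 CPM (1.29 ± 0.31, and 2.23 ± 0.08 without dSRF 1), and the receptor ERBB3 went the other way (-1.49 ± 0.12). BMP response genes were called 5 higher and 3 lower of 12 (median 0.51). ID1, a direct BMP target that blocks differentiation factors, held 152, 169 and 157 CPM in dSAP and 6.36, 63.9 and 53.3 CPM in dSRF (1.96 ± 0.41). The ligand BMP2 held 0.0489, 0.0503 and 0.168 CPM and 4.17, 22.2 and 20.6 CPM (-7.39 ± 0.77, and -8.11 without dSAP 3), and BMP4 was higher in dSAP (0.63 ± 0.14).

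Cytokine genes were mostly lower in dSAP over all libraries, with 12 of 16 lower and 1 higher (median -1.34), and this rested in part on dSRF 1: without it 8 were lower and 5 higher (median -0.37). LIF, a cytokine of the IL-6 family, held 30.5, 32.4 and 31.4 CPM in dSAP and 165, 183 and 184 CPM in dSRF, and dSRF 1 was close to its group (-2.50 ± 0.08). IL6 held 23.9, 24.5 and 23.4 CPM and 221, 29.9 and 34.5 CPM, a log2 fold change of -1.996 ± 0.48 over all libraries and -0.43 ± 0.09 without dSRF 1. CSF2, the granulocyte-macrophage growth factor, held 16.1, 16.5 and 19.7 CPM and 336, 49.1 and 51.1 CPM (-3.07 ± 0.50, and -1.53 ± 0.10 without dSRF 1). IL24 was at 187 CPM in dSRF 1, 5.09, 5.33 and 4.25 CPM in dSAP and 0.854 and 2.27 CPM in dSRF 2 and 3, so that its log2 fold change went from -3.70 to 1.63 without dSRF 1. Of 14 NF-kB genes 9 were lower in dSAP and 3 higher (median -0.45). NFKBIA, the inhibitor that NF-kB induces, held 161, 168 and 170.5 CPM and 247, 409.6 and 404 CPM (-1.09 ± 0.11), while the ubiquitin ligase BIRC3 held 307, 306 and 324 CPM and 189, 70.8 and 72.1 CPM (1.49 ± 0.23, and 2.13 ± 0.06 without dSRF 1). PTGS2, the inducible cyclooxygenase, held no count in dSAP and 0.387, 4.54 and 3.35 CPM in dSRF. Interferon response genes were split, with 10 higher and 16 lower of 33 (median -0.27). The median was -0.11 without dSRF 1, and ran from -0.16 to -0.012 with each of the 6 libraries left out in turn. OASL held 20.7, 19.9 and 19.2 CPM in dSAP and 4.64, 3.31 and 2.61 CPM in dSRF (2.49 ± 0.18), and ISG15, a ubiquitin-like modifier, 77.8, 71.3 and 75.4 CPM and 31.5, 24.9 and 23.9 CPM (1.48 ± 0.08), while MX1 was lower (-0.52 ± 0.07).

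Mitosis and replication genes were higher in dSAP, with 1 exception. All 30 tested mitosis and chromosome segregation genes were called higher, with a median log2 fold change of 1.92 (2.55 without dSRF 1). MKI67, the Ki-67 proliferation antigen, held 489, 476 and 466 CPM in dSAP and 196, 54.8 and 62.2 CPM in dSRF. The dSAP libraries were nearly equal, and dSRF 1 was about 3-fold above dSRF 2 and 3. Its log2 fold change was 2.19 ± 0.30 (3.03 ± 0.07 without dSRF 1). ANLN, anillin of the cleavage furrow, which binds actin, held 763, 754 and 774 CPM and 263, 64.01 and 78.98 CPM (2.49 ± 0.32, and 3.42 ± 0.07 without dSRF 1), and TOP2A, the mitotic topoisomerase, 692, 678 and 671 CPM and 239.8, 87.9 and 98.4 CPM (2.26 ± 0.23, and 2.87 ± 0.06 without dSRF 1). Of 30 DNA replication genes 29 were higher and 1 lower (median 1.47, and 2.03 without dSRF 1). PCNA, the replication clamp, held 201, 195 and 206 CPM and 84.96, 46.9 and 49.99 CPM (1.72 ± 0.14), and MCM5, of the replicative helicase, 89.4, 88.2 and 93.96 CPM and 60.03, 28.6 and 29.4 CPM (1.20 ± 0.17). Of 13 tested replication-dependent histone genes 12 were higher and none lower (median 1.61, and 2.66 without dSRF 1). Histone genes are near-identical copies. Their summed share of counts ran from 0.175% to 0.190% in dSAP and from 0.0349% to 0.104% in dSRF, with dSRF 1 the highest of its group.

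Of 16 cyclins and CDK inhibitors 9 were higher in dSAP and 4 lower (median 0.86). CCNA2, the S and G2 cyclin, held 185, 179.8 and 177 CPM in dSAP and 79.03, 23.8 and 25.98 CPM in dSRF (2.06 ± 0.28, and 2.86 ± 0.07 without dSRF 1). CCND1, the G1 cyclin, was lower, with 349.8, 373 and 367 CPM against 662, 523 and 514 CPM (-0.64 ± 0.07). Of 16 p53 targets 10 were lower in dSAP and 1 higher (median -0.73), and 11 and 3 without dSRF 1. CDKN1A, the CDK inhibitor p21, held 256, 279 and 237 CPM and 414, 622 and 627 CPM (-1.11 ± 0.11, adjusted p = 3.5e-08). MDM2, which degrades p53, was the 1 higher (0.57 ± 0.14). Shares of counts also differed beside these lists. The 13 mitochondrial genome genes held 1.29% to 1.32% of counts in dSAP and 0.448% to 0.851% in dSRF, and 12 were called higher (6 without dSRF 1). Of 34 ribosomal protein genes 6 were higher and 1 lower, and 25 and 1 without dSRF 1 (median 0.29). Their part in the other differences was not tested.

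**Figure D3:**
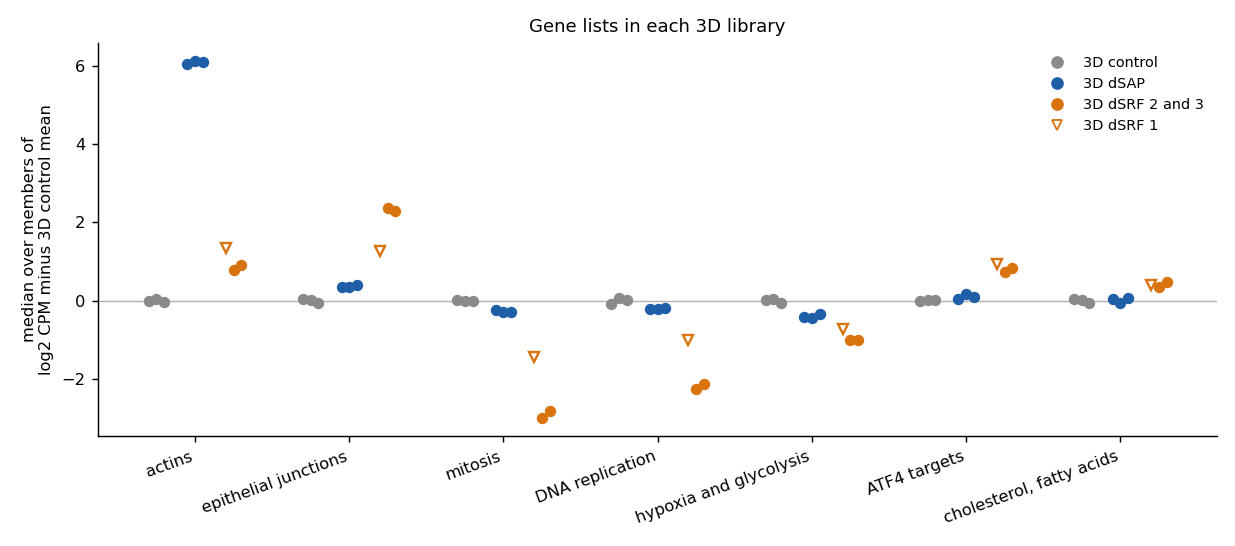
Median over the members of 7 gene lists of log2 CPM minus the mean of the 3D control libraries, for each library of 3D control (grey), 3D dSAP (blue) and 3D dSRF (orange; the open triangle is dSRF 1). The 3 dSAP libraries lie close together in every list, and dSRF 1 lies between dSAP and the other dSRF libraries for junction, mitosis and replication genes (mitosis: -1.43 in dSRF 1 against -3.01 and -2.81).

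Stress and metabolic genes differed by pathway. Of 16 ATF4 targets and serine synthesis genes, which answer to amino acid shortage and endoplasmic reticulum stress, 11 were lower in dSAP and 3 higher (median -1.06). CHAC1, an enzyme that degrades glutathione, held 2.25, 2.11 and 1.79 CPM in dSAP and 26.6, 23.01 and 24.8 CPM in dSRF, a log2 fold change of -3.59 ± 0.15. PSAT1, of serine synthesis, held 57.6, 61.8 and 61.5 CPM and 199.6, 194 and 201 CPM (-1.72 ± 0.07). In both genes dSRF 1 was close to its group. Of 12 amino acid transporters 7 were lower and 2 higher (median -0.51), and 7 and 4 without dSRF 1. SLC7A5, the large neutral amino acid carrier, was not called over all libraries (0.01 ± 0.32), with 605 CPM in dSRF 1 and 159 and 157 CPM in dSRF 2 and 3 on either side of dSAP (304, 341 and 282 CPM). Without dSRF 1 it was higher in dSAP (0.97 ± 0.10). Chaperones and other unfolded protein response genes were called 6 higher and 6 lower of 14 (median -0.01).

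Hypoxia targets and glycolysis enzymes were higher in dSAP for 22 of 31 genes and lower for 3 (median 0.52, and 0.78 without dSRF 1). LDHA, which makes lactate, held 1473, 1445 and 1581 CPM in dSAP and 749, 585 and 605 CPM in dSRF, a log2 fold change of 1.21 ± 0.09 (adjusted p = 4.0e-10). EGLN3, an oxygen sensor that HIF induces, held 16.1, 15.7 and 18.3 CPM and 0.859, 0.694 and 0.493 CPM (4.59 ± 0.18). CA9, the HIF-driven carbonic anhydrase, held 5.77, 5.94 and 7.10 CPM and 0.0859, 0.160 and 0 CPM (6.17 ± 0.45, and 6.89 without dSRF 2). PDK1, which keeps pyruvate out of mitochondria, held 67.5, 66.7 and 73.8 CPM and 22.9, 24.98 and 27.3 CPM (1.47 ± 0.08). VEGFA, a secreted HIF target, went the other way, with 139.6, 147 and 141 CPM in dSAP and 279, 299 and 276 CPM in dSRF, as did ADM, another (-0.92 ± 0.07). Of 23 cholesterol and fatty acid synthesis genes 15 were lower in dSAP and 6 higher (median -0.47). SCD, the stearoyl-CoA desaturase, held 184, 152 and 199 CPM and 593, 1484 and 1542 CPM (-2.76 ± 0.25). DHCR7, of the last step to cholesterol, held 39.3, 36.5 and 39.3 CPM and 81.2, 80.8 and 72.6 CPM (-1.03 ± 0.06). Of 11 fatty acid oxidation genes 6 were lower and 3 higher (median -0.52), with the carnitine transferase CPT1A at 93.6, 96.4 and 88.04 CPM and 252, 225 and 228 CPM (-1.34 ± 0.06). Of 20 lysosome and V-ATPase genes 13 were lower and 2 higher (median -0.34). Ferritin and NRF2 targets were called 8 higher and 4 lower of 17 (median 0.12, and 0.31 without dSRF 1). Respiratory chain genes of the nucleus were called 6 higher and 5 lower of 20 (median 0.09), and 13 and 3 without dSRF 1.

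Markers of other cell types differed by list. Of 10 immune markers only CD68 and CD14 were tested, CD68 lower in dSAP (-1.73 ± 0.10) and CD14 higher (1.14 ± 0.16). The 10 summed to 55.1 to 58.4 CPM in dSAP and 145 to 189.7 CPM in dSRF. Of 9 endothelial markers 3 were tested. VWF held 0.245, 0.101 and 0.168 CPM in dSAP and 6.02, 34.97 and 36.04 CPM in dSRF (-7.17 ± 0.68), and KDR was called lower over all libraries (-1.34 ± 0.39) and not without dSRF 1 (adjusted p = 0.31). The 9 summed to 4.68 to 5.25 CPM in dSAP and 29.1 to 41.2 CPM in dSRF. Of 10 fibroblast and smooth muscle markers 6 were tested, 4 higher in dSAP and 1 lower (2 lower without dSRF 1), with a median log2 fold change of 2.00, and of 2.33 in 2D with 4 higher. The 4 were PDGFRB, at 13.7, 11.8 and 12.97 CPM and 3.01, 3.10 and 2.47 CPM (2.16 ± 0.12), COL1A2 and the matrix genes COL3A1 (4.49 ± 0.34) and LUM (1.84 ± 0.28). The 10 summed to 96.6 to 101 CPM in dSAP and 18.3 to 132 CPM in dSRF, where dSRF 1 was the lowest. DES and DCN were at 0 in all 6 libraries, and PTPRC near 0. The part of these genes in the other results was not tested. MDA-MB-231 expresses several genes of these lists itself.

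Library dSRF 1 differed from the mean of dSRF 2 and 3 by at least 2-fold in 2659 genes (856 higher and 1803 lower), against 429 genes between dSRF 2 and 3. Among 1600 genes that were 4-fold or more apart between the mean of dSAP and the mean of dSRF 2 and 3, dSRF 1 lay between them for 1313 (82.1%), at a median of 43.6% of the way from dSRF 2 and 3 to dSAP. It was nearer to the 2D dSRF mean than to 3D dSRF 2 and 3 for 69.1% of all genes tested. No such share was taken for dSRF 2 or 3, whose r to the 2D dSRF libraries was as high. The genes highest in dSRF 1 were F3, tissue factor, with 1509, 97.5 and 106 CPM in dSRF 1, 2 and 3 and 407, 426 and 420.2 CPM in dSAP, and DKK1, an inhibitor of Wnt signalling, with 705, 45.5 and 50.1 CPM and 77.9, 78.04 and 79.2 CPM. The protease ADAMTS1 (151, 10.998 and 12.4 CPM), SHISA2 (24.1, 1.98 and 2.22 CPM), the scavenger receptor OLR1 (34.1, 2.99 and 3.20 CPM) and the neutrophil chemokine CXCL8 (181, 16.7 and 18.2 CPM) followed. Those lowest in it were RIMBP3C (0, 23.7 and 19.5 CPM), of a family of near-identical copies, the sialyltransferase ST6GAL1 (0.301, 35.7 and 32.3 CPM), NFATC4 (0.301, 28.3 and 24.997 CPM) and GRAMD1B (2.19, 101 and 92.9 CPM), then XCR1 and LCE3D. These genes were picked for their values in this library, which are a description with no test. All 6 of the highest changed their call or direction when the library was left out. The log2 fold change of F3 went from -0.45 to 2.04, that of ADAMTS1 from -1.07 to 1.25, that of CXCL8 from -0.16 to 1.89 and that of SHISA2 from 0.60 to 2.78, all 4 called without it and not over all libraries. ADAMTS1 was also called, as lower in dSAP, without dSRF 2 (-1.56) or dSRF 3 (-1.55). DKK1 went from -1.77 to 0.71, called both ways but not when any 1 dSAP library was left out (adjusted p = 0.0546 to 0.0566), and OLR1 from -2.55, called, to -0.42, not called.

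**Figure D4:**
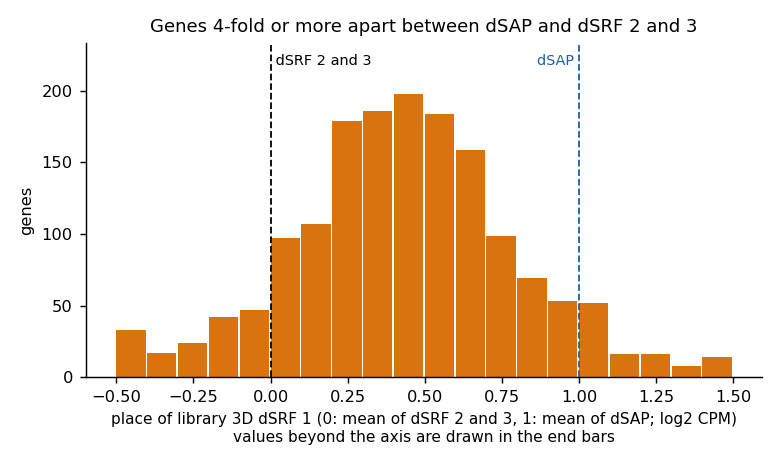
Place of library 3D dSRF 1 between the mean of 3D dSRF 2 and 3 (0) and the mean of 3D dSAP (1) on log2 CPM, for the 1600 genes at least 4-fold apart between those means, in bins of 0.1 with values beyond the axis in the end bars. The bars peak between the dashed lines, and 1313 genes lie between them.

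The same lines in plates share no library with the 3D comparison. There, 9739 of 14986 genes were called (65.0%), 4700 higher in dSAP (31.4%) and 5039 lower (33.6%). Calls in both cultures and in the same direction numbered 7163, which is 73.9% of the 3D calls and 73.5% of the 2D calls, and 419 genes were called in opposite directions. The difference itself was tested as an interaction: dSAP against dSRF differed between cultures for 4132 genes (27.6%), 2149 of them more positive in 3D (14.3%) and 1983 more negative (13.2%). Without dSRF 1 the interaction was called for 6456 genes (42.3%), 24.2% more positive and 18.2% more negative. Its removal also lowers the shared spread, and 71.4% of genes were then called in plates, 34.8% higher and 36.6% lower. Actins were higher in dSAP in both cultures, with medians of 4.25 in 3D and 3.27 in 2D, as were mitosis genes (1.92 and 1.26) and smooth muscle genes (1.36 and 1.33). TNC reached 5.23 ± 0.26 in 3D and 3.63 ± 0.24 in 2D.

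Some groups differed between cultures in direction and others in size. Hippo genes and YAP and TEAD targets were called 11 lower and 3 higher in 3D and 4 lower and 11 higher in 2D (medians -0.42 and 0.36), with the interaction negative for 15 of 22. Without dSRF 1 the 3D count was 11 lower and 8 higher (median -0.09), with 13 interactions negative. CCN1 was lower in dSAP in 3D (-1.79 ± 0.22) and was not called in 2D (0.40 ± 0.22), with an interaction of -2.19 ± 0.31 (adjusted p = 3.6e-05), and of -1.60 ± 0.07 without dSRF 1. In plates it held 2398, 2459.9 and 2622 CPM in dSAP and 1897, 1769 and 2000.3 CPM in dSRF. Cholesterol and fatty acid synthesis genes were called 15 lower and 6 higher in 3D and 8 lower and 13 higher in 2D, with the interaction negative for 14 of 23 and positive for none. FASN, the fatty acid synthase, was lower in dSAP in 3D (-0.29 ± 0.08) and higher in 2D (1.25 ± 0.08, interaction -1.53 ± 0.12), and SREBF2, the factor that drives cholesterol genes, likewise (-0.22 ± 0.07 and 1.05 ± 0.07, interaction -1.27 ± 0.10), though its 3D call was lost without dSRF 1 (-0.13 ± 0.06, adjusted p = 0.070). KRT7 was lower in 3D (-1.26 ± 0.05) and higher in 2D (0.62 ± 0.05), an interaction of -1.88 ± 0.08. KRT17 was lower in 3D and not called in 2D (-0.11 ± 0.21, adjusted p = 0.65), an interaction of -3.10 ± 0.31. Interferon response genes were more often called lower than higher in both, 16 against 10 of 33 in 3D and 19 against 6 in 2D (medians -0.27 and -0.87), and the interaction was positive for 16 and negative for 2. OASL was higher in dSAP in 3D and lower in 2D (-0.84 ± 0.19), an interaction of 3.33 ± 0.26, and IFIT2, an interferon-induced RNA-binding protein, was higher by a small margin in 3D (0.34 ± 0.14, adjusted p = 0.046, 0.0582 to 0.25 with any library but dSRF 1 left out) and lower in 2D (-1.89 ± 0.16), an interaction of 2.23 ± 0.21. DNA replication genes were called higher in dSAP for 29 of 30 in 3D and 19 of 30 in 2D, with medians of 1.47 and 0.55 and with 19 interactions positive (30 without dSRF 1) and none negative, such as PCNA (1.72 ± 0.14 in 3D and 0.66 ± 0.14 in 2D, interaction 1.07 ± 0.19).

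The largest interactions in each direction include some that reads cannot place with certainty. ALX1 held no count in 3D dSRF, 6.505, 6.29 and 7.77 CPM in 3D dSAP, 7.30, 8.99 and 7.42 CPM in 2D dSAP and 0.348, 0.419 and 0.620 CPM in 2D dSRF. TRIM26, in the MHC region of chromosome 6, held no count in 2D dSAP and 7.60 to 26.0 CPM in the 3D libraries, and POC1B-GALNT4 is a readthrough locus that shares sequence with its parts. PLEKHG4B held 8.80, 11.8 and 9.06 CPM in 3D dSAP and 0.473, 1.17 and 1.82 CPM in 3D dSRF, and was near 0 in plates (interaction 4.17 ± 0.86, and 5.02 without 2D dSAP 1). ATOH8, a BMP-responsive factor, held 19.5, 23.2 and 19.8 CPM and 0.0859, 4.38 and 3.35 CPM in 3D and at most 2.53 CPM in the plate libraries of these lines (interaction 3.99 ± 0.77, 3.40 ± 0.29 without dSRF 1 and 4.60 without dSRF 2). On the negative side, CLIC5, a chloride channel family protein tied to the actin cortex, held 3.37, 3.52 and 3.80 CPM in 3D dSAP and 56.6, 58.2 and 55.6 CPM in 2D dSAP, while dSRF held 24.7, 42.4 and 44.3 CPM and 42.8, 42.4 and 43.9 CPM (interaction -3.78 ± 0.24, adjusted p = 2.0e-09). ANO2, a calcium-gated chloride channel, held 0.734, 0.805 and 0.615 CPM in 3D dSAP and 13.1, 11.6 and 12.1 CPM in 2D dSAP, against 20.8, 7.90 and 8.28 CPM in 3D dSRF and 15.7, 14.6 and 15.4 CPM in 2D dSRF (interaction -3.78 ± 0.40, and -3.17 ± 0.20 without dSRF 1). PSG6 and DEFB103B, of near-identical families, were also among them (interactions -3.68 ± 0.58, or -4.42 without 3D dSAP 2, and -4.25 ± 0.49).

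**Figure D5:**
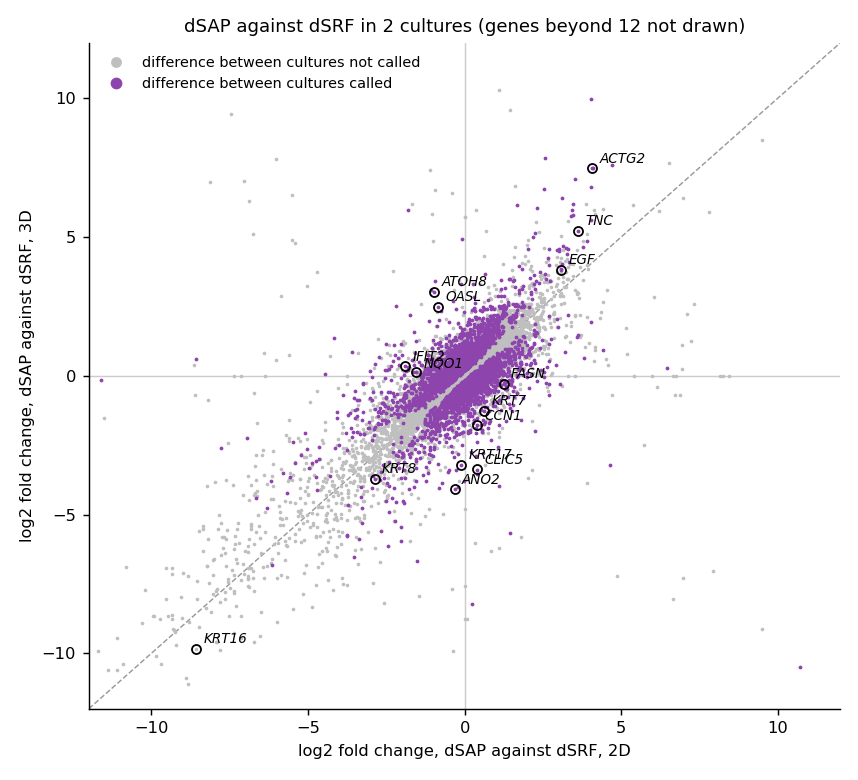
Log2 fold change of dSAP against dSRF in 3D (vertical) and 2D (horizontal) for the genes tested, with those whose difference between cultures was called in purple (4132 genes in all; those beyond 12 are not drawn), named genes circled and a dashed line at equal values. ACTG2, TNC and EGF lie to the upper right and KRT16 to the lower left, while CCN1, KRT7, FASN and CLIC5 lie below it and OASL and ATOH8 above.

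Against the control line in 3D, 4435 genes were called in dSAP (29.6%) and 9948 in dSRF (66.4%), in dSAP 16.5% higher and 13.1% lower and in dSRF 35.1% higher and 31.3% lower. These comparisons share the 3 control libraries, so their values are given side by side. SRF was higher by 1.80 ± 0.09 in dSAP and by 0.32 ± 0.08 in dSRF, and ACTA2 by 6.15 ± 0.22 and 1.90 ± 0.24. MYL9 was at 4.10 ± 0.26 in dSAP and -0.74 ± 0.24 in dSRF, and TNC at 3.16 ± 0.23 and -2.07 ± 0.24, so both were above control in one line and below it in the other. VCL was above control in both (1.19 ± 0.04 and 0.68 ± 0.04), as was CCN1 (1.79 ± 0.23 and 3.58 ± 0.24, the latter 2.99 ± 0.06 without dSRF 1). KRT8 stood at 0.48 ± 0.11 in dSAP and 4.19 ± 0.13 in dSRF, and ITGB4 at -0.45 ± 0.12 and 2.49 ± 0.13. MKI67 stood at -0.50 ± 0.28 in dSAP, not called (adjusted p = 0.20), and at -2.69 ± 0.30 in dSRF. Without dSRF 1, which also narrows the shared spread, these were -0.50 ± 0.05, called (adjusted p = 2.8e-08), and -3.53 ± 0.07. LDHA stood at -0.43 ± 0.09 and -1.64 ± 0.09. Over the lists, mitosis genes had a median of -0.26 in dSAP and -2.26 in dSRF, with 4 and 30 of 30 called lower, and none higher in either. Without dSRF 1 the medians were -0.26 and -2.95, with 22 and 30 called lower, and 2 higher in dSAP. Junction genes had medians of 0.35 and 2.05, with 11 and 18 of 23 called higher (0.35 and 2.61 without dSRF 1). Hypoxia and glycolysis genes had medians of -0.43 and -0.95, with 18 and 28 of 31 called lower. For actins the medians were 6.15 and 1.90, with 5 of 5 called higher in dSAP, and 3 higher and 1 lower in dSRF, or 2 and 2 without dSRF 1. Without dSRF 1 the calls against control numbered 6715 in dSAP (44.0%, with 23.3% higher and 20.7% lower) and 11098 in dSRF (72.8%, with 37.2% higher and 35.6% lower).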

How the data were processed

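RNA was measured by sequencing of total RNA after ribosomal RNA depletion with a stranded kit, per the labels' protocols, although another label names polyA RNA. Reads were checked with FastQC and quantified with Salmon (written as 11.3) on hg38, per the submitters' processing notes. Which gene annotation they used is not stated in these sources. The authors deposited estimated counts and TPM (length-scaled transcript abundance) per gene. Of 37247 gene IDs, 34429 were given a symbol from a gene name table. Positions and gene types came from GENCODE release 29.

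Estimated counts (26.3% of values not whole) were rounded to whole numbers. All 24 libraries in 8 groups were fitted with edgeR 4.0.16 (R 4.3.3) after filterByExpr, with TMM factors and the quasi-likelihood test. All groups share the spread, with 16 residual degrees of freedom, and p-values were adjusted by Benjamini-Hochberg over 14986 genes. The typical biological coefficient of variation was 13.1%, and 6.64% without dSRF 1. CPM values use TMM-scaled library sizes, and fold changes are on the log2 scale. What is called the SE of the fit was derived from the test. It is the size of the log2 fold change divided by the square root of the F statistic. Groups came from the titles. Replicates were not duplicates: at most 3.50% of genes had equal counts in a pair. On data simulated for 3D dSAP against dSRF over 14775 genes, 80 of 100 genes changed 2-fold and 58 of 100 changed 1.5-fold were recovered, with 5 false calls of 143. No other gene was changed there, and no library was drawn apart from its group. The real comparison called 64.7% of genes and held dSRF 1, so these rates need not carry over to it.

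The genes and the 47 lists were chosen with earlier results of these data known. The genes named were 12 fixed ones, the 12 largest changes in each direction under the criteria given in the text, list members of lowest p or described role, the 5 largest differences between cultures in each direction (at least 5 CPM in a group), and the 6 genes highest and 6 lowest in dSRF 1 against dSRF 2 and 3 (at least 10 CPM in a library). Some genes these rules choose are not reported here. Genes of the MHC region and readthrough loci were left out of the largest changes. Alternatives were RLE factors, no filter, DESeq2 1.42.0, limma 3.58.1 on log2 of the deposited TPM plus 1 or 0.1, each library left out in turn, fits of the compared groups alone, grouping by the genotype field, and a replicate block. Promoter sequences are RefSeq's, build GRCh38.p14.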

Additional observations from a re-analysis of the deposited data

Results flagged for a closer look

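dSAP against dSRF differed between matrigel and plates, by the interaction test of edgeR's quasi-likelihood fit, for 4132 of 14986 genes. Values below are the 3D minus the 2D log2 fold change, all with an adjusted p under 0.05, and none was weighed for a cause.

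More positive on matrigel were PLEKHG4B (4.17), ATOH8 (3.99), OASL (3.33), IFIT2 (2.23) and PCNA (1.07). More negative were DEFB103B (-4.25), ANO2 (-3.78), CLIC5 (-3.78), PSG6 (-3.68), KRT17 (-3.10), CCN1 (-2.19), KRT7 (-1.88), FASN (-1.53) and SREBF2 (-1.27). All 14 kept their direction and their call under every alternative run, each library left out in turn included.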

How the results depend on the processing

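The count of genes called between 3D dSAP and 3D dSRF was 9685 with RLE factors, 9630 with DESeq2 and 9411 of 25708 with no filter. It was 8646 and 8499 on log2 TPM plus 1 and plus 0.1, 6599 with only the 6 libraries, and 10951 with those but dSRF 1. With libraries left out it ran from 9052 to 10969, and for at least 2-fold from 3192 to 4051. With groups from the genotype field it was 0 in edgeR's quasi-likelihood test, also for at least 2-fold, and 33 genes had an unadjusted p under 0.05. No other tool was run on that grouping. In plates it ran from 9087 to 10881, for dSAP against control from 3517 to 6715, for dSRF against control from 9418 to 11098, and for the difference between cultures from 3460 to 6456. The last was 2560 with only the libraries compared. The cause of these shifts was not tested.

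Same-numbered 3D dSAP and dSRF libraries did not deviate together, with r of -0.035 to -0.012, against -0.035 to 0.069 for other pairs. In plates the same-numbered dSAP and dSRF libraries had r of 0.019 to 0.070, against -0.067 to 0.003 for other pairs. With dSRF 1 apart from its group, the 3D values cannot decide whether the numbers pair the samples. With the replicate block 9604 genes were called, and 10902 with the block and without dSRF 1, an alternative chosen after seeing the data, as was leaving it out of the 6 libraries.

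MRTFA was 1.57 with only the 6 libraries (adjusted p = 0.11), and ran from 1.12 to 1.93 with libraries left out. Of 131 other named genes, 128 could be assessed with only the 6 libraries, 130 on either TPM scale and 122 with DESeq2. Of the genes assessed in each setting, 20 lost their call with only the 6 libraries and 8 on either TPM scale. With the block 3 lost it, with no filter 3, with DESeq2 2 and with RLE factors 1. With 1 library left out 3 to 5 lost it, among them DKK1 without any dSAP library, RIMBP3C without any but dSRF 1, NFATC4 without any but dSAP 1 and dSRF 1, and IFIT2 without any but dSRF 1. Those that turned sign did so mostly without dSRF 1: F3 2.04, DKK1 0.71, ADAMTS1 1.25, CXCL8 1.89, CCN2 0.91, THBS1 0.98, CDH2 0.11, IL24 1.63 and MYH9 0.005. With the block as well they were F3 2.06, DKK1 0.73, ADAMTS1 1.27, CXCL8 1.91, CCN2 0.93, MYH9 0.01, THBS1 1.01, CDH2 0.11 and IL24 1.63, and with only the libraries compared and without dSRF 1 F3 2.02, DKK1 0.69, ADAMTS1 1.23, CXCL8 1.86, CCN2 0.88, THBS1 0.96, CDH2 0.083 and IL24 1.61. On log2 TPM plus 0.1 the turned values were F3 0.72, CXCL8 0.75, CCN2 0.13 and THBS1 0.058, and plus 1 they were F3 0.71, CXCL8 0.74, CCN2 0.13 and THBS1 0.057. CXCL8 was 0.032 with the block. SLC7A5, near 0, was -0.0079 with DESeq2, -0.0077 with no filter, -0.0056 with only the libraries compared and -0.0093 with RLE factors. With each library left out in turn, the values of the genes that turned ran from -0.95 to 2.04 for F3, from -2.27 to 0.71 for DKK1, from -1.56 to 1.25 for ADAMTS1, from -0.63 to 1.89 for CXCL8, from -0.62 to 0.91 for CCN2, from -0.18 to 0.005 for MYH9, from -0.99 to 0.98 for THBS1, from -0.14 to 0.049 for VIM, from -2.03 to 0.11 for CDH2, from -0.15 to 1.58 for FOSL1, from -0.31 to 0.97 for SLC7A5 and from -4.27 to 1.63 for IL24.

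With 3 libraries a group, and 1 of the dSRF libraries apart, the size of a change in dSRF is the least certain value. Genes at a few counts are limited by depth.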
